A study of Mus musculus with 335 samples.

Results

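The genes described here are 37 type I interferon-stimulated genes, taken by symbol from a table of 20188 mouse genes. All 37 symbols of the list were present. They were followed through 335 RNA-seq libraries in 61 groups, which gave 281 profiles once the libraries of 1 mouse and tissue were averaged. Values are RPKM, read counts scaled to transcript length and to library depth. The study compared mammary tumours with their metastases in transgenic and allograft mice, and no animal or culture was treated. Primary tumours made up 23 of the groups, lung metastases 16 and cultured lines 7.

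Transgenic tumours arose from polyoma middle T antigen under the mouse mammary tumour virus promoter (MMTV-PyMT, a promoter active mainly in mammary epithelium). The PyMT mice were labelled FVB (14 animals), BL6 (6), BL10 (6), CAST (7) or MOLF (8). Further tumours arose from MMTV-Myc (6), MMTV-Neu (2) and C3Tag (3, driver SV40T). These were labelled FVB except for 2 C3Tag animals, whose strain fields hold other entries, C3Tag in animal 1. Allografts came from 14 established mouse mammary tumour lines placed in the mammary gland. The lines 4T1, 4T07, 67NR, D2A1, EMT6, F311 and TSAE1 were labelled BALB with an unknown driver, E0771 BL6 and R3T 129S1J, also with an unknown driver. The lines 6DT1 (cMyc), Mvt1 (cMYC / VEGF), Met1 (PyMT) and HRM1 (Pik3ca) were labelled FVB, except for 1 cultured 6DT1 library tagged BALB, and M6 (SV40T) carried the strain labels REAR, FVB or BALB by experiment. Each allograft model is thus 1 line, and every animal of a group received the same line. Lung metastases followed orthotopic tumours or tail vein injection, and those in liver, spleen and brain mostly followed intracardiac injection. Healthy FVB lung and liver and tissue beside metastases served as host controls. Ages of the animals are not given in the sources used here.

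Type I interferons are secreted when a cell detects foreign or misplaced nucleic acid. They bind the receptor IFNAR1 and IFNAR2 on the same or neighbouring cells, the kinases JAK1 and TYK2 become active, and STAT2 is phosphorylated and joins IRF9 in the complex ISGF3. ISGF3 binds the interferon-stimulated response element, a pair of GAAA boxes found in promoters of many interferon-induced genes, and the induced gene Irf7 then feeds back on interferon production. In tumours this programme can be active in the cancer cells, in infiltrating cells or in both, and many of its genes also answer to interferon gamma.

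The list was divided by role into signal transducers (Stat2, Irf9, Irf7), RNA sensors and effectors (Ifih1, Ddx58, Dhx58, Zbp1, Eif2ak2), oligoadenylate synthetases (Oas1a, Oas1g, Oas2, Oas3, Oasl1, Oasl2), the IFIT family (Ifit1, Ifit2, Ifit3), the ISG15 system (Isg15, Usp18, Herc6, Trim25), restriction factors (Mx1, Mx2, Bst2, Ifitm3, Rsad2, Cmpk2, Isg20), PARP genes with Dtx3l (Parp9, Parp12, Parp14, Dtx3l) and 5 others (Ifi44, Ifi35, Rtp4, Xaf1, Lgals3bp). Promoters from RefSeq (assembly GRCm38.p6), covering 250 bases before to 50 after the start of transcription, were found for 28 of the 37. The spaced pair GAAANNGAAA, searched on both strands with overlapping matches counted, occurred in 13 of these 28 genes (46.4%). Over all promoters it occurred in 3.99% of 27025 gene symbols and in 3.44% of 32851 windows, since some genes have several windows. A match describes the letters in a window and is neither a proven site nor a cause of any level below. The expression values were aligned to mm9, so these coordinates belong to the promoters alone. The 160 bases upstream of the start are shown for 5 genes whose levels carry the comparisons below, 5′ to 3′ on the strand of the gene, with the bases of the matches in capitals:
Isg15, chr4:156200819-156200978, minus strand: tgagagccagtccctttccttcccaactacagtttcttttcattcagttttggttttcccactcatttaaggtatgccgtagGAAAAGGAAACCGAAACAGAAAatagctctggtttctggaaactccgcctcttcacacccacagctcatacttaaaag
Ifit1, chr19:34640729-34640888, plus strand: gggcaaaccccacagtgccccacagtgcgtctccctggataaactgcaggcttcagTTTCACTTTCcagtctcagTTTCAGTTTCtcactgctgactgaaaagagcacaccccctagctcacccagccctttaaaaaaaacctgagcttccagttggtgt
Ifit3, chr19:34583369-34583528, plus strand: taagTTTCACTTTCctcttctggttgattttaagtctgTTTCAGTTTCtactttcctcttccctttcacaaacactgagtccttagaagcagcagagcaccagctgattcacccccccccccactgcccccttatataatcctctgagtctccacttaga
Oas1a, chr5:120907526-120907685, minus strand: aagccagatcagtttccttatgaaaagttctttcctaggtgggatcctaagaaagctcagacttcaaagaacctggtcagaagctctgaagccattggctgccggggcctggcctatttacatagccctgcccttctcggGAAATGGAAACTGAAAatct
Bst2, chr8:71537473-71537632, minus strand: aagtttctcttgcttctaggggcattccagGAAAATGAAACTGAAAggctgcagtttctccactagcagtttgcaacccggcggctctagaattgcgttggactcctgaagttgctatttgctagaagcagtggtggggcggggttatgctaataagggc

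Isg15 held 3 overlapping matches between positions -78 and -66, counted from the start of transcription to the first base of a match. The other 4 promoters each held 2, which began at -104 and -85 in Ifit1, at -156 and -122 in Ifit3, at -20 and -14 in Oas1a, and at -130 and -124 in Bst2. Ddx58, Eif2ak2, Ifih1, Ifitm3, Oas1g, Oas3, Rsad2 and Stat2 also held the pair.

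Library depth recovered from the RPKM steps ran from 8106344 to 54906212 reads, and 1 read in a 1 kb transcript was worth 0.0368 RPKM at the median depth. Sample titles carry library labels of several series (KS, AS, RNA and others) whose meaning is not given in the sources used here, and many groups hold a single series. The cultured 4T1 and 4T07 libraries disagreed strongly between series, as described below, and results that rest on them are given with and without the AS libraries. A single PyMT FVB animal was titled FVB and tagged MOLF in its strain field, and it is kept as FVB. The epithelial markers Epcam, Krt8, Krt18 and Cdh1 summed to 0.615 to 4.09 RPKM in 67NR tumours and to 60.4 RPKM or more in every tumour of the other lines. In these bulk samples fewer cells of a type and less RNA per cell cannot be told apart. The p-values measure the spread between the animals or cultures of a group. Where 1 difference per model or line is tested, they measure the spread between models or lines.

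As a summary of level, log2(RPKM + 1) was averaged over the 37 genes in each profile. Between groups this mean ran from 0.92 in the single M6 brain metastasis to 5.01 ± 0.34 (SD, n = 4) in E0771 tumours. EMT6 tumours followed at 4.58 ± 0.11 (SD, n = 4), then cultured Met1 cells at 4.40 ± 1.06 (SD, n = 3), 6DT1 orthotopic lung metastases at 4.36 ± 0.13 (SD, n = 6) and F311 tumours at 4.32 ± 0.43 (SD, n = 4). The lowest groups with replicates were cultured 67NR cells (1.25 ± 0.15, n = 4), healthy FVB liver (1.49 ± 0.22, n = 4), liver beside M6 metastases (1.50 ± 0.13, n = 5) and cultured M6 cells (1.94 ± 0.05, n = 3). Among primary tumours the lowest were MMTV-Myc (2.24 ± 0.56, n = 6), HRM1 (2.63 ± 0.33, n = 4) and 67NR (2.72 ± 0.18, n = 6). Met1 tumours removed by resection had 4.20 ± 0.81 (SD, n = 4), beside 4.02 ± 0.68 (SD, n = 7) in Met1 tumours that were not. PyMT FVB tumours spread from 2.02 to 4.98 over 14 animals, so that most neighbours in the middle of this order differed by less than their spread.

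The genes differed widely in abundance. Ifitm3, a membrane protein that blocks virus entry, was the most abundant, with a median of 298 RPKM over the 61 group means and a highest group mean of 1924 RPKM in resected Met1 tumours. Bst2 (tetherin) and Lgals3bp, a secreted galectin-binding protein, had medians of 67.2 and 47.7 RPKM. Mx1, a GTPase that blocks influenza virus, had the lowest median, 1.95 RPKM, and was under 1 RPKM in 22 groups. Over the 61 group means the genes whose level tracked the mean of the other genes of the list most closely were Oas1a (Pearson r = 0.96) and Oasl2 (0.95). Those that tracked it least were Stat2 (0.46), Isg20 (0.50) and Mx2 (0.66). Each gene was left out of the mean it was compared with, and groups share a pipeline and depth range. Of 22 primary tumour groups without resected tumours, E0771 held the highest mean of 21 of the 37 genes, and MMTV-Myc held the lowest mean of 19.

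**Figure D1:**
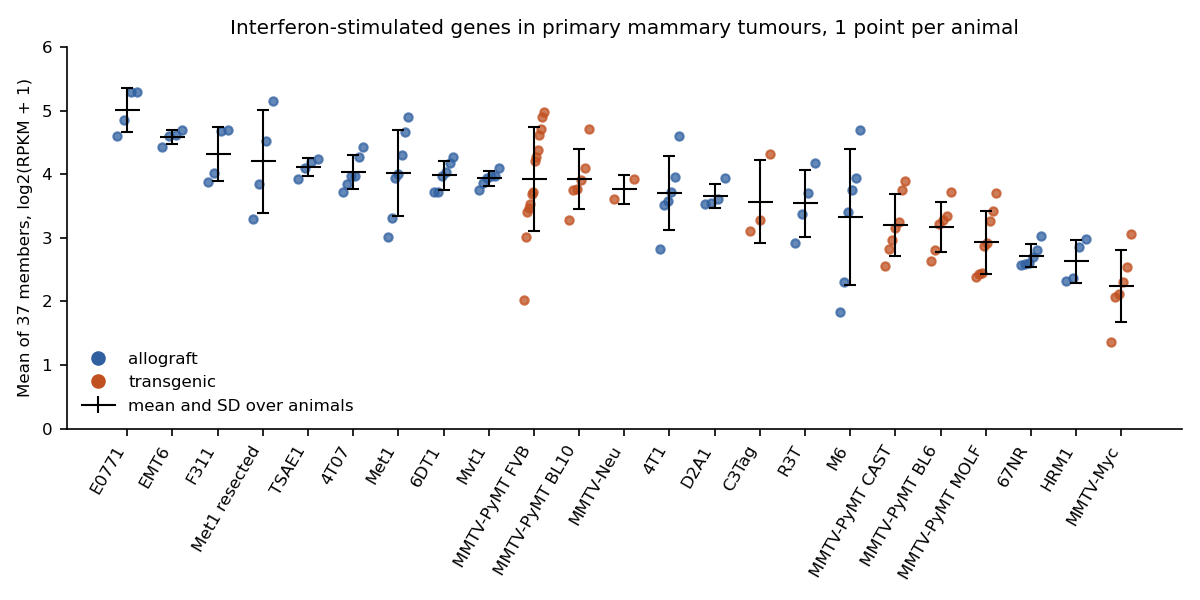
Mean of log2(RPKM + 1) over the 37 genes (y axis) in each primary tumour group (x axis), with 1 point per animal, allografts in blue, transgenic tumours in orange, and black bars for the mean and SD over animals. Group means fall from 5.01 in E0771 to 2.24 in MMTV-Myc, and single PyMT FVB animals range from 2.02 to 4.98.

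E0771 tumours had the highest interferon-stimulated transcripts of the 14 orthotopic lines. In limma on log2(RPKM + 1), with p-values adjusted over all genes, 29 of the 37 genes were higher in E0771 than in the mean of the other 13 lines, against 23.9% of the 13261 genes tested. Usp18, the protease that removes ISG15 and dampens the receptor, reached 79.6, 62.7, 75.3 and 89.3 RPKM in the 4 tumours. The highest value among the compared tumours of the other lines, which leave out the resected Met1 tumours, was 32.0 RPKM, so the groups did not overlap, and the difference was 2.89 ± 0.33 on the log2 scale (SE, adjusted p = 2.90e-11). Rsad2 (viperin) measured 47.9, 23.5, 30.2 and 41.96 RPKM and differed by 2.91 ± 0.34 (adjusted p = 7.81e-11), again with no overlap, since no tumour of the other 13 lines in this comparison passed 16.4 RPKM. Outside this comparison, resected Met1 tumours reached 28.5 RPKM and PyMT FVB tumours 79.4 RPKM. Ifit1, which binds viral RNA lacking a host cap, measured 59.6, 43.7, 47.9 and 74.1 RPKM against a mean of 9.89 RPKM elsewhere (2.65 ± 0.37, adjusted p = 1.28e-08). Ifit3, Cmpk2 (a nucleotide kinase beside Rsad2 in the genome) and Oas1a differed by 2.36 ± 0.38, 2.21 ± 0.28 and 2.15 ± 0.38. By role, all 6 synthetases, all 3 IFIT genes and 6 of 7 restriction factors were higher, and so was 1 of 4 genes of the PARP group. Irf9, Zbp1, Trim25, Isg20, Parp9, Parp14, Dtx3l and Rtp4 were not called. The median difference was 1.23 over the 37 genes and -0.15 over all genes.

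EMT6 and F311 tumours were also high. EMT6 was higher in 21 of the 37 genes (background 17.4%) and F311 in 10 (25.2%), a count that was 4 without either F311 animal 2 or 3. Zbp1, a sensor of Z-form nucleic acid that starts necroptosis, measured 74.8, 71.3, 66.6 and 51.9 RPKM in EMT6 and 30.1, 97.8, 109.7 and 24.0 RPKM in F311, against a mean of 25.8 RPKM in the lines other than EMT6. The differences were 1.77 ± 0.35 and 1.44 ± 0.35. Bst2, which holds budding virus at the cell surface, was at 356, 291, 301 and 198 RPKM in EMT6 (1.38 ± 0.31), and Dhx58, a regulator of RNA sensing, differed by 1.35 ± 0.24 there. In F311 the synthetases Oas1a and Oas1g, which make the activator of RNase L, differed by 1.26 ± 0.38 and 1.27 ± 0.37. Oas1a, Oas1g and other Oas1 copies are closely related, so their reads may be partly shared. The median difference over the 37 genes was 0.76 in EMT6 and 0.50 in F311, beside -0.11 and 0.01 over all genes. TSAE1 had a split pattern, with 12 genes higher (background 19.2%) and 2 lower (14.9%). The ADP-ribosyltransferase genes Parp14 and Parp9 and their partner Dtx3l were higher by 1.14 ± 0.25, 0.92 ± 0.18 and 0.92 ± 0.20, while Cmpk2 and Rsad2 were lower, with differences of -1.24 ± 0.28 and -0.92 ± 0.34.

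The lowest levels among the lines were in 67NR, HRM1 and M6. In 67NR, 33 of the 37 genes were lower (background 29.8%) and Ifit2 alone was higher (32.7%). Isg15, a ubiquitin-like modifier, had 4.98 to 9.63 RPKM (median 7.13) in 6 67NR tumours and differed by -2.54 ± 0.33 (adjusted p = 1.09e-09), with a mean of 58.8 RPKM in the other lines. Parp9 had 3.66 to 7.73 RPKM (median 4.28), and differed by -1.89 ± 0.15 (adjusted p = 1.21e-16). The ranges of both genes overlapped those of other lines. Ifit2 had 6.94 to 14.9 RPKM (median 11.6), against a mean of 7.83 RPKM elsewhere (0.69 ± 0.21, adjusted p = 0.00406). It was thus on the opposite side from Ifit1 (-1.86 ± 0.31), its neighbour in the same gene cluster. In HRM1, 33 genes were lower (16.7%), all but Eif2ak2 (the kinase PKR), Trim25, Isg20 and Parp14. Ifi44 was at 2.07, 0.801, 0.440 and 0.302 RPKM (-3.09 ± 0.39), and Irf7 at 12.8, 8.69, 3.85 and 3.84 RPKM (-1.90 ± 0.43, adjusted p = 3.79e-04). Isg20, an exonuclease, measured 32.1, 21.7, 26.1 and 35.2 RPKM there (0.06 ± 0.16, adjusted p = 0.782). In M6, 19 genes were lower (29.3%), with Ifit2 (-1.69 ± 0.21) and Zbp1 (-1.64 ± 0.29) among them, and the 6 animals spread from 1.83 to 4.70 in the mean of the 37. The median over the 37 genes was -1.20 in 67NR, -1.24 in HRM1 and -0.51 in M6, beside 0.00, -0.00 and 0.02 over all genes.

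Fewer of the 37 genes set the other lines apart. Met1 tumours had 52.3 to 495 RPKM (median 299) of Lgals3bp, 2.13 ± 0.23 above the other lines (adjusted p = 5.41e-12), with Irf7 and Ifitm3 higher by 1.27 ± 0.33 and 1.08 ± 0.20, but Isg20 lower, with a difference of -1.43 ± 0.12. In all, 9 genes were higher (background 32.0%) and 4 lower (33.3%). R3T tumours had 20.7, 45.2, 62.7 and 34.3 RPKM of Xaf1, a factor that binds the apoptosis inhibitor XIAP (1.43 ± 0.25), and 30.6, 59.6, 57.8 and 63.4 RPKM of Isg20 (0.95 ± 0.16). Rtp4, a chaperone of receptors, was lower there, with a difference of -1.66 ± 0.37, and the counts were 2 higher (17.9%) and 7 lower (19.9%). The Myc-labelled lines 6DT1 and Mvt1 shared higher Oas3, Herc6 (the ISG15 ligase of mice) and Trim25 (a ligase that acts on RIG-I), by 0.95 ± 0.27, 0.69 ± 0.17 and 0.57 ± 0.12 in 6DT1 and by 1.04 ± 0.27, 0.47 ± 0.17 and 0.79 ± 0.12 in Mvt1. Each is compared with a mean that includes the other. They had 3 and 5 higher genes in all (26.5% and 23.8%). In 4T07 8 genes were higher (25.7%), led by Zbp1 (1.34 ± 0.29). In 4T1 2 were higher (27.0%) and 3 lower (21.0%), and in D2A1 2 were higher (15.1%) and 5 lower (40.1%). Without D2A1 animal 1 or 3 none was higher in D2A1, and 4 were lower in R3T without animal 1 or 4. The F-test over the 14 lines called all 37 genes, as it did 98.9% of all genes.

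**Figure D2:**
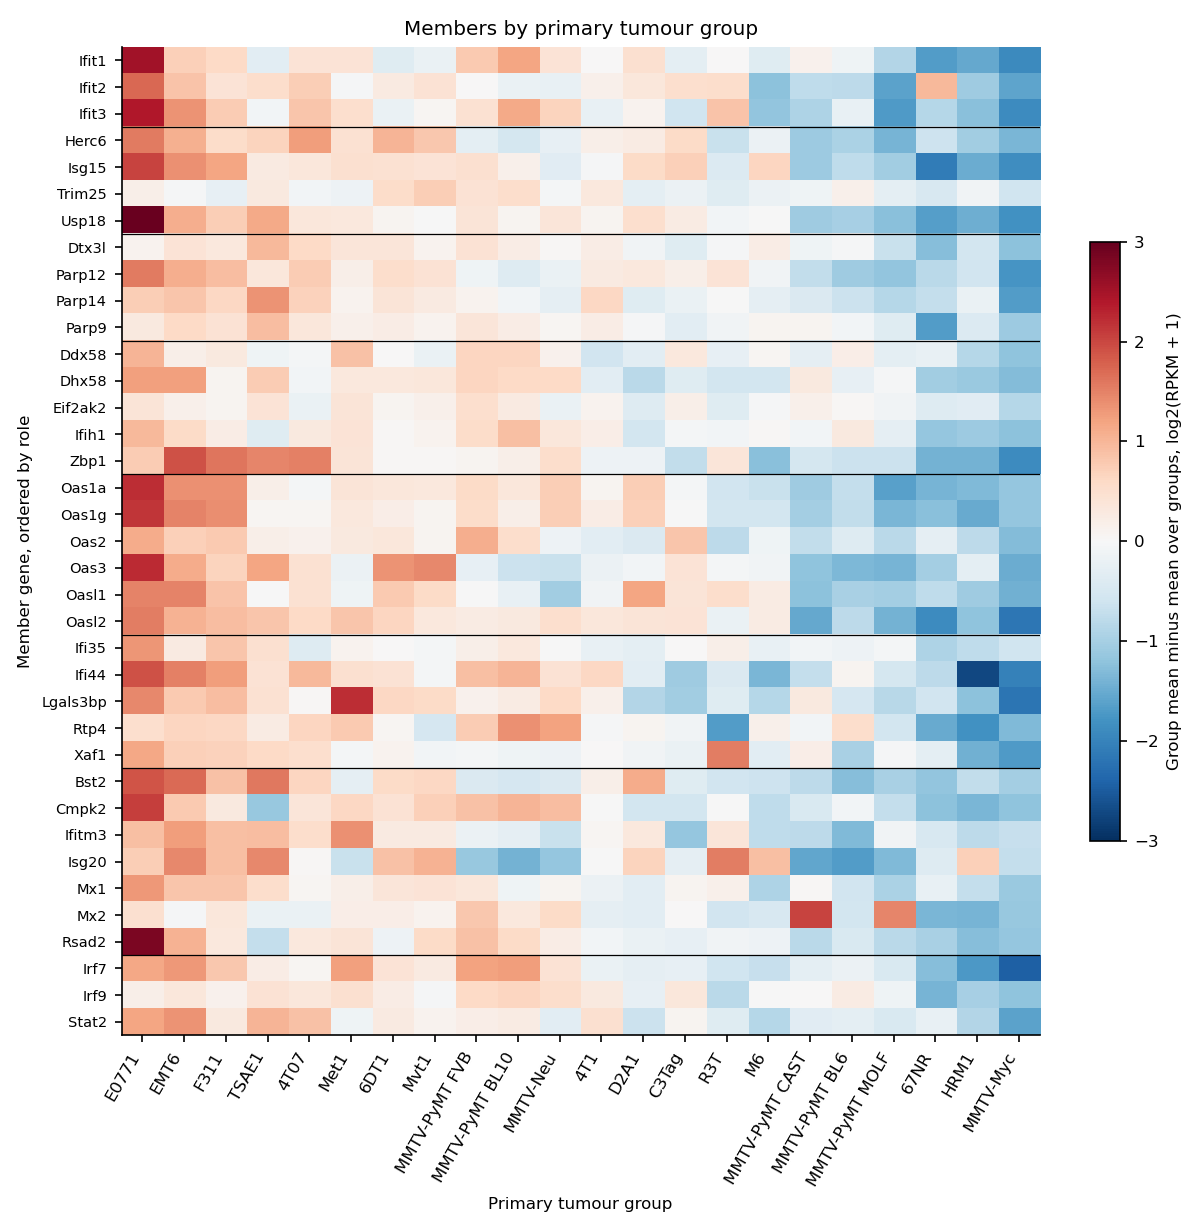
Each cell is the group mean of log2(RPKM + 1) of a gene (rows, separated by role) minus the mean of that gene over the 22 primary tumour groups (columns, ordered by mean of the 37). Red cells run through most of the E0771 column, where 21 genes are highest, and blue through MMTV-Myc. Mx2 in CAST and MOLF and Ifit2 in 67NR go against their columns.

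The macrophage markers summed to 112 to 170.4 RPKM in the high E0771 tumours and to 624 to 900.2 and 653 to 819 RPKM in the low 67NR and HRM1 tumours. The T and NK cell markers summed to 17.6 to 161 RPKM in EMT6, 3.30 to 7.48 in E0771 and 0.250 to 1.24 in M6. In E0771 5 of 6 macrophage markers, all 4 neutrophil markers and 2 of 6 T and NK cell markers were lower than in the other lines. The share of all genes lower in E0771 is not given here. No macrophage, neutrophil or T and NK cell marker was at 0 in all tumours of a line. Of 12 tested genes induced mainly by interferon gamma (such as Cxcl9, Gbp2 and Tap1), all 12 were higher in EMT6 (background 17.4%). In E0771 3 were higher, near the background of 23.9%, and 11 were lower in 67NR (29.8%) and 11 in HRM1 (16.7%). The part of these cells and genes in the levels of the 37 genes was not tested. E0771, EMT6, F311, TSAE1, D2A1, R3T and HRM1 share a label series of their own. Within these 7 lines 31 genes were higher in E0771, 23 in EMT6, and 36 were lower in HRM1. The share of all genes called within these lines is not given here.

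MMTV-Myc tumours had far less of these transcripts than MMTV-PyMT tumours on the same strain label. In 6 Myc against 14 PyMT FVB animals, 34 of the 37 genes were lower (background 37.9%), with a median difference of -1.75 over the list and -0.17 over all genes. Irf7, the transcription factor that amplifies interferon production, had 0.545 to 9.34 RPKM (median 3.42) in Myc and 3.50 to 223 RPKM (median 71.3) in PyMT, a difference of -3.49 ± 0.54 (adjusted p = 8.53e-06). The groups overlapped. Stat2, the transducer particular to type I and III interferon, had 1.27 to 2.51 RPKM (median 1.66) in Myc and 2.39 to 18.1 RPKM (median 8.59) in PyMT (-1.79 ± 0.27, adjusted p = 4.94e-06), and these ranges overlapped. Ifi44 differed by -2.81 ± 0.45, Ifit1 by -2.58 ± 0.53, Oasl2 by -2.25 ± 0.55, Isg15 by -2.22 ± 0.57 and Oas2 by -2.21 ± 0.51, all with adjusted p of 0.00196 or less. By role, all 3 transducers, all 6 synthetases and all 3 IFIT genes were lower, and the genes not called were Bst2, Ifitm3 and Isg20. All Myc libraries carry RNA labels. Against the 5 PyMT FVB animals with RNA labels, 28 genes were lower (share of all genes not given here). The macrophage markers summed to 94.3 to 408 RPKM in Myc and 56.1 to 234 RPKM in PyMT, with 3 of 6 higher in Myc. The share of all genes higher in Myc is not given here. In Myc 9 of 12 interferon gamma genes, 2 of 4 epithelial markers, 1 of 4 endothelial markers and the 1 dendritic marker tested were lower (background 37.9%). There 1 of 4 neutrophil and 1 of 2 leukocyte markers were higher. The part of these cells was not tested.

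The allografts 6DT1 and Mvt1 are labelled with Myc as well. The 37-gene mean was 3.98 ± 0.23 (SD, n = 6) in 6DT1 and 3.93 ± 0.12 (SD, n = 6) in Mvt1, beside 2.24 ± 0.56 (SD, n = 6) in MMTV-Myc and 3.92 ± 0.82 (SD, n = 14) in PyMT FVB. Irf7 was at 16.9 to 47.5 RPKM (median 31.3) in 6DT1 and at 20.0 to 45.5 RPKM (median 28.6) in Mvt1. These lines were not compared with transgenic tumours by a test, since route and library labels differ. Against PyMT FVB, limma called none of the 37 genes in tumours of 2 MMTV-Neu animals, where 1 gene reached an unadjusted p under 0.05. Of the 3 C3Tag tumours, 2 are not labelled FVB. In the C3Tag tumours, 4 genes were lower (background 14.2%), namely Ifi44 (-1.85 ± 0.59), Cmpk2 (-1.38 ± 0.51), Dtx3l (-0.78 ± 0.23) and Parp9 (-0.66 ± 0.26). Herc6 alone was higher there (31.6%), at 5.28, 12.2 and 5.26 RPKM against a PyMT mean of 3.66 RPKM (0.89 ± 0.30, adjusted p = 0.0167). None was lower without C3Tag animal 1 or 3, while 6 were lower without animal 2, where Herc6 was not called. The F-test over the 4 drivers called 31 of 37 genes, and 78.5% of all genes.

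With the driver held at PyMT, mean levels differed by strain label. The ranges of every gene of the list overlapped those of FVB in each of the 4 contrasts below. The F-test over the 5 strains called 32 of 37 genes, against 48.3% of all genes. Relative to FVB, MOLF tumours were lower in 30 genes (background 25.8%), CAST in 16 (3.97%) and BL6 in 4 (4.37%), while limma called none in BL10, where 1 reached an unadjusted p under 0.05. The median difference over the list was -1.02 in MOLF, -0.58 in CAST, -0.76 in BL6 and -0.04 in BL10, beside -0.08, 0.02, -0.02 and -0.01 over all genes. The 4 contrasts share the FVB animals. Oas1a had 1.46 to 26.9 RPKM (median 4.60) in 8 MOLF animals and 0.711 to 74.6 RPKM (median 27.7) in 14 FVB animals (-2.04 ± 0.46, adjusted p = 5.59e-04), with overlapping ranges. Ifit2 had 0.520 to 2.11 RPKM (median 0.913) in MOLF and 1.78 to 21.5 RPKM (median 5.09) in FVB (-1.58 ± 0.23, adjusted p = 2.49e-06). Ifit3, Oas1g, Oas2 and Rsad2 were lower in MOLF, with differences of -1.96 ± 0.46, -1.75 ± 0.44, -1.73 ± 0.42 and -1.61 ± 0.45. In CAST the genes with the greatest called differences were Oas2 (-1.65 ± 0.44), Oasl2 (-1.62 ± 0.45), Rsad2 (-1.61 ± 0.47) and Oas1a (-1.49 ± 0.48). In BL6 they were Ifitm3 (-1.08 ± 0.30), Parp12 (-0.89 ± 0.22) and Parp14 (-0.73 ± 0.24).

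Mx2 was called higher in CAST, against the direction of the list. It encodes a GTPase related to Mx1, and most classical laboratory strains carry defective alleles of both, while CAST and MOLF are wild-derived. CAST tumours had 7.14 to 45.4 RPKM (median 25.0) and MOLF tumours 3.39 to 40.7 RPKM (median 13.0), beside 0.273 to 30.1 RPKM (median 8.30) in FVB and 1.09 to 4.60 RPKM (median 3.13) in BL6. It was the single gene called higher in CAST (background 7.11%), by 1.31 ± 0.43 (adjusted p = 0.0435), and the MOLF difference was 0.74 ± 0.41 (adjusted p = 0.152). Its neighbour Mx1 had 1.08 to 5.04 RPKM (median 2.44) in CAST and 0.0344 to 15.9 RPKM (median 3.68) in FVB (-0.26 ± 0.31, adjusted p = 0.638). Among animals with KS labels, of which CAST had 2 and FVB 8, the Mx2 difference was 1.78 ± 0.59 (adjusted p = 0.0761). Reads of CAST and MOLF mice were aligned to the mm9 reference, which comes from BL6, and the part of mismatches in these levels was not tested. In the KS animals alone, 12 genes were lower in MOLF, 2 in CAST and 10 in BL6 (shares of all genes not given here). MOLF, CAST and BL6 had 2 such animals each, and most other CAST and MOLF libraries carry labels seen in no FVB tumour. Without the FVB animal tagged MOLF, the only change of a strain count by over 1.5 times was in BL6, where 2 genes stayed lower. Neutrophil markers summed to 57.3 to 3559.7 RPKM in MOLF and 25.6 to 278 RPKM in FVB, with all 4 higher in MOLF, and their part was not tested.

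**Figure D3:**
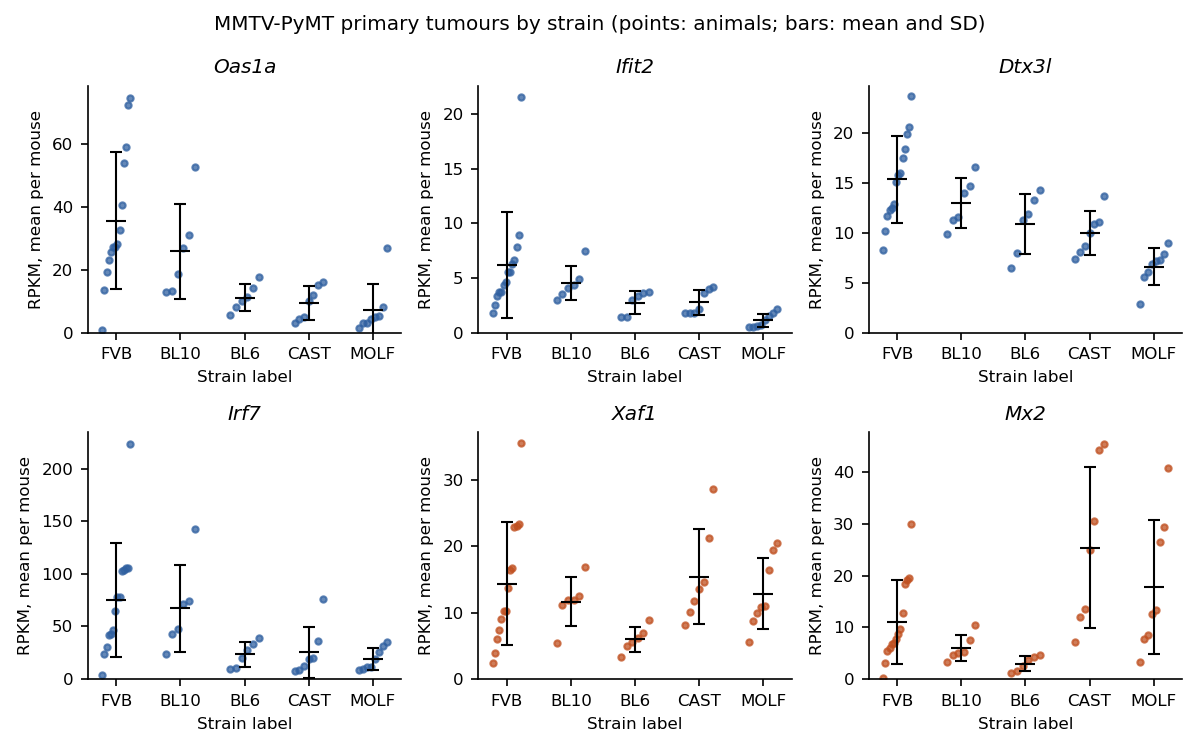
RPKM (y axes) of 6 genes in MMTV-PyMT primary tumours by strain label (x axes), with 1 point per animal and bars for mean and SD. Oas1a and Ifit2 lie low in MOLF, with means of 7.15 and 1.11 RPKM against 35.6 and 6.17 in FVB, while Mx2 lies high in CAST, with a mean of 25.4 RPKM against 11.1.

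Lines grown in culture, without a host, already differed in these genes. Met1 cells were highest in 28 of the 37 genes and 67NR cells lowest in 27. In limma 26 genes were higher in Met1 than in the mean of the other 6 lines (background 18.6%), and 26 were lower in 67NR (32.7%). Isg15 measured 330.3, 161 and 62.4 RPKM in 3 Met1 cultures and 1.20, 0.968, 0.390 and 0.305 RPKM in 4 67NR cultures, against 24.8, 24.2 and 23.8 RPKM in 6DT1, 29.1, 22.0 and 24.3 RPKM in Mvt1 and 32.7, 19.0 and 22.1 RPKM in M6. The 67NR values lay below every other culture, with a mean difference of -4.49 ± 0.65 (adjusted p = 6.79e-06). Ifit2 was again the exception in 67NR, at 11.7, 11.3, 8.12 and 8.65 RPKM and 1.62 ± 0.23 above the other lines (adjusted p = 4.55e-06; background 22.8%). The line thus had higher Ifit2 than the mean of the other lines both in culture and in the animal. The median over the list was -1.80 in 67NR and 1.67 in Met1, beside -0.10 and 0.04 over all genes. Met1 cells had 387, 238 and 61.8 RPKM of Lgals3bp (3.80 ± 0.55) and M6 cells 1.47, 1.41 and 2.03 RPKM (-3.32 ± 0.55), the same direction as in their tumours. The Met1 cultures spread from 3.31 to 5.42 in the mean of the 37, and the Met1 count was 11 without culture 1 and 16 without culture 2.

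The cultured 4T07 and 4T1 libraries split by label, in opposite ways. In 4T07, Isg15 measured 191, 179, 26.8 and 29.1 RPKM, where the first pair carry AS labels and the second pair do not, and 36 of the 37 genes were higher in both AS libraries, 31 of them with the lower AS library more than 2-fold above the higher of the others. In 4T1, Isg15 measured 2.89, 2.72, 52.9 and 77.0 RPKM, where the first pair carry AS labels and the second pair KS labels, and all 37 genes were lower in both AS libraries, 34 of them with the higher AS library more than 2-fold below the lower of the others. Irf7 followed, at 19.9, 25.6, 2.49 and 2.50 RPKM in 4T07 and 0.432, 0.422, 11.9 and 18.4 RPKM in 4T1. In 67NR, 19 genes were lower and 6 higher in both AS libraries. Of the 6, 1 was higher by more than 2-fold in that sense. It was Isg15, at 1.20 and 0.968 RPKM with AS labels and 0.390 and 0.305 RPKM without. Of the 19, 8 were lower by more than 2-fold. Among these, Stat2 measured 0.731, 0.613, 5.35 and 4.46 RPKM and Dhx58 0.201, 0.151, 1.87 and 1.64 RPKM, AS libraries first. With all libraries, 8 genes were higher in 4T07 than in the other lines (18.7% of all genes) and 1 in 4T1 (16.9%). Without the AS libraries, 16 were lower in 4T07 and 32 higher in 4T1 (shares of all genes not given here). Which libraries show the usual state of these lines, and whether labels were exchanged between the AS libraries of 4T1 and 4T07, was not tested. The F-test over the 7 lines called 33 of 37 genes and 82.2% of all genes.

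Tumours held more of these transcripts than cultured cells of the same line. With 1 difference per line, 20 of the 37 genes were higher in tumours over the 7 lines (background 12.4%). The median difference was 0.87 over the list and -0.04 over all genes. Zbp1 had the greatest called difference, 2.54 ± 0.38 (adjusted p = 0.00191), followed by Irf7 (2.37 ± 0.34) and Rtp4 (2.07 ± 0.40). By line, in 67NR 33 genes were higher in tumours (26.7%), in 6DT1 33 (27.2%) and in Mvt1 31 (18.5%), but in Met1 1 was higher (14.2%) and 3 were lower (19.5%). In M6 8 were higher (13.6%), a count that fell to 2 or 3 when any 1 of the 3 M6 cultures was left out. In 6DT1 the 3 cultures had 0.122, 0.0550 and 0.133 RPKM of Zbp1 and the 6 tumours 10.2 to 30.7 RPKM (median 18.0), with no overlap (4.06 ± 0.31, adjusted p = 5.54e-06). Isg20 went the other way there and in 67NR, with differences of -0.52 ± 0.17 and -0.51 ± 0.12 (background for lower genes 28.4% and 16.9%). Bst2 was lower in Met1 tumours than in Met1 cells, 23.4 to 139.6 RPKM (median 69.9) against 608, 236 and 87.8 RPKM (-1.71 ± 0.59, adjusted p = 0.047), with overlapping ranges, and was not called without culture 1 or culture 2. In 4T1 5 genes were higher (28.3%) and in 4T07 8 (18.7%). Without the AS libraries, 35 were higher in 4T07 tumours, and 10 were lower in 4T1 tumours (shares of all genes not given here). The count of 20 was 13 without 67NR and also without 6DT1. Over the 7 lines without the AS libraries it was 15.

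Markers of host cells were higher in tumours as well. Over the 7 lines all 6 macrophage markers and both leukocyte markers were higher in tumours, and so were 10 of 10 tested interferon gamma genes. The macrophage markers summed to 34.8 to 49.9 RPKM in cultured 6DT1 cells and 254 to 604 RPKM in 6DT1 tumours. The share of host cells in the difference was not tested.

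**Figure D4:**
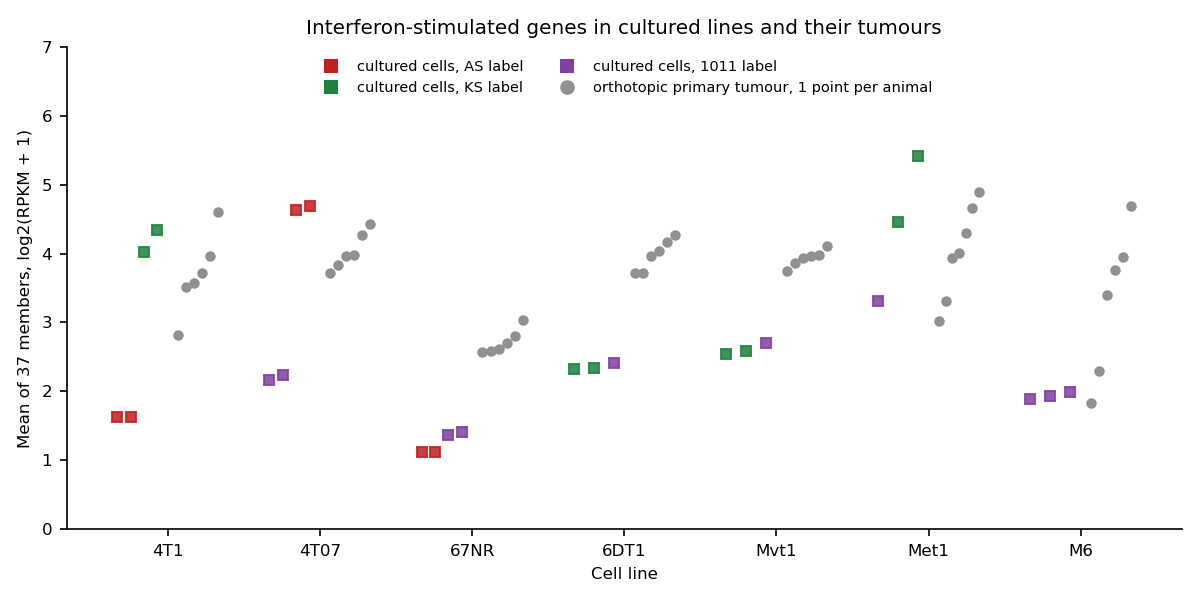
Mean of log2(RPKM + 1) over the 37 genes (y axis) in cultured cells (squares, coloured by library label) and orthotopic tumours (grey circles, 1 per animal) of 7 lines (x axis). The AS squares lie at the top in 4T07 and at the bottom in 4T1, and 67NR cells lie between 1.11 and 1.40, below all 67NR tumours.

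Lung metastases were compared with the primary tumour of the same animal in 68 mice of 10 models. Over the models the list barely moved as a whole, with a median difference of 0.02 beside -0.04 over all genes. Limma on 1 difference per model called 3 genes higher in metastases (background 11.4%) and 1 lower (20.4%). Ifitm3 was higher by 0.51 ± 0.13 (adjusted p = 0.00978), with means of 485 and 352 RPKM, Ifit3 by 0.65 ± 0.23 (adjusted p = 0.0465) and Isg20 by 0.28 ± 0.08 (adjusted p = 0.0217). Trim25 was lower, with a difference of -0.22 ± 0.05 (adjusted p = 0.00849). Without the pairing none of the 4 was called, and without Mvt1 1 gene was higher. The models did differ in Ifit3 (F-test, adjusted p = 0.00895), Stat2 (0.0416), Ddx58 (0.0471) and Ifit2 (0.0476), 4 of 37 genes against 19.0% of all genes. This count ranged from 1 to 7 over the alternatives tried.

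The 6DT1 allografts had the most called genes of the 10 models. All 6 6DT1 animals had a higher 37-gene mean in the metastasis, by 0.09 to 0.66, and 18 genes were higher (background 18.9%). Ifit3 had 4.28 to 16.3 RPKM (median 6.42) in 6DT1 tumours and 17.4 to 27.4 RPKM (median 25.7) in metastases (1.57 ± 0.26, adjusted p = 0.00308). Rsad2, Ifit1, Isg15 and Zbp1 were higher by 1.19 ± 0.21, 0.91 ± 0.20, 0.79 ± 0.15 and 0.63 ± 0.13, while Ifi44 alone was lower, with a difference of -0.43 ± 0.11 (15.4%). In 4T1 4 genes were higher (7.36%): Ifit3 (1.52 ± 0.40), Ddx58, which encodes the RNA sensor RIG-I (0.95 ± 0.19), Ifitm3 (0.77 ± 0.18) and Ifi35 (0.76 ± 0.18). In Mvt1 6 were higher (11.2%), with Ifit3 at 0.81 ± 0.25 and Ddx58 at 0.76 ± 0.10, and Trim25 was lower (-0.53 ± 0.11; 17.8%). Ifit3 was thus called in all of 4T1, 6DT1 and Mvt1. The median over the list was 0.52, 0.33 and 0.20 in these models, beside 0.03, -0.01 and -0.02 over all genes. The 3 type 2 pneumocyte markers were higher in the metastases of every model. Over the models all 4 neutrophil, all 4 endothelial and both leukocyte markers were higher and all 4 fibroblast markers lower. In 6DT1, 4 of 4 neutrophil, 3 of 3 tested endothelial, 2 of 3 tested plasmacytoid dendritic and 2 of 4 dendritic markers and 9 of 12 interferon gamma genes were higher. The part of these cells was not tested.

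The pneumocyte markers summed to 1909 to 5881 RPKM in 6DT1 metastases, 0.128 to 0.596 RPKM in 6DT1 tumours and 9684 to 15534 RPKM in healthy lung. Ifit3 itself was at 35.1, 31.7, 36.6 and 19.1 RPKM and Ifitm3 at 333, 336, 311.1 and 236 RPKM in healthy lung. Met1 and M6 metastases had no called gene in limma (unadjusted p under 0.05 in 0 and 5 genes). Their animals scattered widely, with paired differences in the 37-gene mean from -1.63 to 2.24 in Met1 and from -0.63 to 2.94 in M6. Nor did BL6, BL10, CAST or MOLF PyMT metastases have a called gene (3, 4, 2 and 3 at an unadjusted p under 0.05).

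PyMT FVB metastases were lower than their tumours in 10 of 12 animals, with a mean paired difference of -0.77 ± 0.97 (SD) in the 37-gene mean. The genes' median difference was -0.71, beside -0.07 over all genes, and 27 of 36 tested genes had an unadjusted p under 0.05. After adjustment 1 was lower (background 0.497%), Irf7, with a difference of -1.77 ± 0.40 (adjusted p = 0.0474). It had 3.50 to 223 RPKM (median 71.3) in the tumours of all 14 animals, which include some outside the 12 pairs. In metastases it had 1.35 to 206 RPKM (median 8.74). It was not called without the animal whose tumour is replicate 6, or within the KS or the RNA libraries alone, and without the animal tagged MOLF 2 genes were lower. The metastases fell into separate levels. In 3 of 13 animals the 37-gene mean was 5.33, 5.49 and 5.70, and in the other 10 it ran from 1.99 to 3.82. Isg15 accordingly had 1.33 to 223 RPKM (median 14.2). Among the 3 high animals is the one tagged MOLF. The others carry nearly the same mouse number, and whether they are the same mouse is not stated. FVB nodules of 1 animal lay close together. Among 8 animals with more than 1 metastasis library the pooled within-animal SD was 0.285, against 1.34 between animals. In BL6 metastases the corresponding values were 1.11 and 0.592, and in 4 FVB animals with a pair of tumour libraries 1.15 and 0.819.

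**Figure D5:**
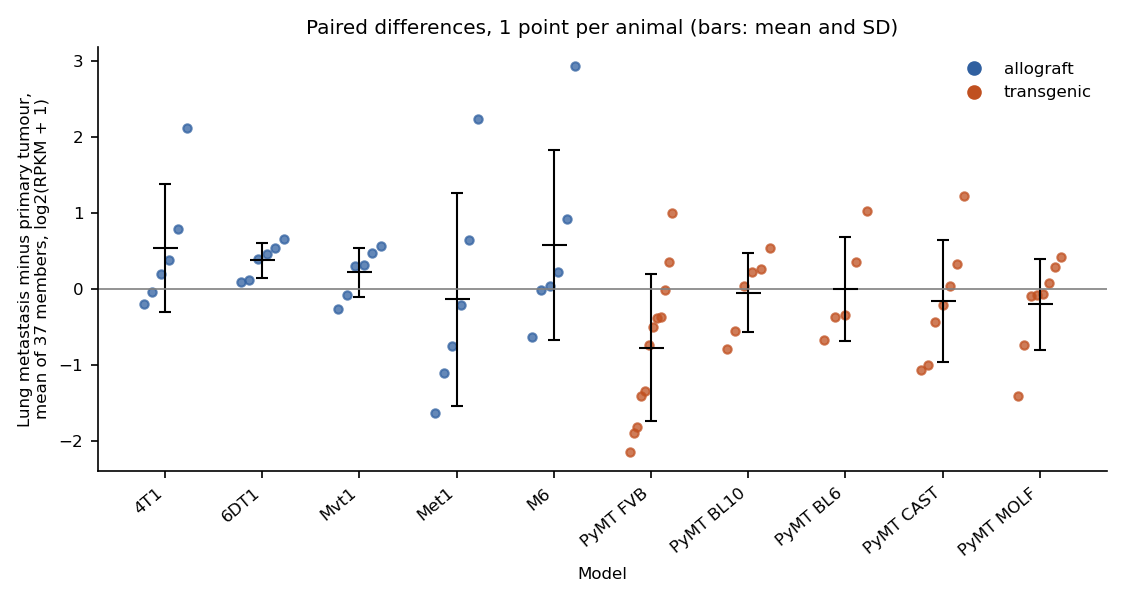
Lung metastasis minus primary tumour of the same animal, in the mean of log2(RPKM + 1) over the 37 genes (y axis), for 10 models (x axis), with 1 point per animal and bars for mean and SD. All 6 6DT1 points lie above 0, and 10 of 12 PyMT FVB points lie below it.

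Lung metastases that followed tail vein injection had less of these transcripts than those from orthotopic tumours. The 6 Mvt1 tail vein samples have titles that begin with Met1, while their library names and cell line and driver tags read Mvt1, and they are taken as Mvt1. With line as a term, 18 of the 37 genes were lower after tail vein injection in 4T1, 6DT1 and Mvt1 (background 5.50%). The median difference was -0.46 over the list and 0.02 over all genes. Zbp1 differed by -1.03 ± 0.23 (adjusted p = 0.00355), Ifi44 by -0.92 ± 0.24, Oas2 by -0.85 ± 0.28 and Irf7 by -0.83 ± 0.27. The 4T1 metastases had 6.33 to 21.0 RPKM (median 9.44) of Zbp1 after tail vein injection and 13.8 to 51.0 RPKM (median 33.3) after orthotopic growth. The 2 tail vein 6DT1 animals had 14.2 and 8.21 RPKM, and the 6 orthotopic ones 19.3 to 43.0 RPKM (median 26.8). The ranges did not overlap in 6DT1 and overlapped in 4T1. All 3 transducers and 4 of 6 synthetases were lower, but limma called no IFIT gene in the 3 lines combined (all 3 at an unadjusted p under 0.05). In 6DT1 alone Ifit2 (-0.95 ± 0.22, adjusted p = 0.0339) and Ifit3 (-0.80 ± 0.21, adjusted p = 0.0456) were lower, and the Ifit3 difference was -1.41 ± 0.41 in 4T1 (adjusted p = 0.0615). By line, 5 genes were lower in 4T1 (1.88%) and 8 in 6DT1 (5.14%; 4 without tail vein animal 1 and 0 without animal 2), and limma called none in Mvt1 (5 at an unadjusted p under 0.05). Whether the lines differ was not tested. The count of 18 fell to 3 without 4T1, to 6 without 6DT1, was 24 without Mvt1, and fell to 10 without tail vein 6DT1 animal 2. Of T and NK cell markers 4 of 6 and of interferon gamma genes 12 of 12 were lower after tail vein injection as well, and their part was not tested.

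Lung beside PyMT FVB metastases was lower than healthy FVB lung in 7 of 33 tested genes (background 10.0%). Trim25 measured 7.25, 7.86, 8.62, 8.57 and 8.87 RPKM beside metastases and 12.1, 11.6, 13.8 and 15.6 RPKM in healthy lung (-0.62 ± 0.10, adjusted p = 0.00613), without overlap. The largest called differences were in low genes, Rsad2 (-0.96 ± 0.25, adjusted p = 0.034), at 0.817, 0.940, 0.818, 1.24 and 0.881 RPKM against 1.28, 5.26, 3.37 and 2.16 RPKM, and Mx2 (-0.64 ± 0.11, adjusted p = 0.00719), at means of 1.01 and 2.15 RPKM. Stat2 differed by -0.44 ± 0.09 and Xaf1 by -0.43 ± 0.09, and the median was -0.21 over the list and -0.04 over all genes. In adjacent lung 2 of 6 macrophage, 2 of 4 dendritic and 2 of 6 T and NK cell markers were lower and 2 of 4 epithelial markers higher, and their part was not tested. All adjacent lungs carry RNA labels and all healthy lungs KS labels, so label and condition cannot be told apart. In liver beside metastases of M6, Met1 and 6DT1 combined, 1 of 23 tested genes was higher than in healthy liver (background 0.723%). It was Xaf1, at 3.04, 1.80, 7.57, 3.40 and 4.41 RPKM beside M6 metastases and 1.45, 2.05, 1.41 and 1.94 RPKM in healthy liver (0.91 ± 0.21, adjusted p = 0.03), and it was not called when any 1 healthy liver was left out. Titles of the healthy livers name an FVB by PyMT F1 cross, while their tags read FVB.

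M6 liver metastases stood far above the liver around them in the same 5 animals. Isg15 had 2.02, 2.32, 1.77, 1.96 and 2.37 RPKM in the 5 livers, against 12.3 to 152 RPKM (median 77.8) in the metastases of 7 animals, and did not overlap (paired difference 4.71 ± 0.30, adjusted p = 3.38e-06). Oasl2 and Isg20 differed by 4.68 ± 0.45 and 3.53 ± 0.21. In all 31 of 33 tested genes were higher, but so were 81.6% of all genes, and the all-gene median was 1.33, beside 1.98 over the list. After rescaling to the median ratio of the libraries, which brings the all-gene median to -0.14, 20 genes were higher and 3 lower. Trim25, Bst2, Xaf1 and Mx2 changed sign in that scaling. Hepatocyte markers summed to 15330.1 to 28196 RPKM in the livers and 5078 to 26063 RPKM in the metastases, and all 3 were lower in metastases. Of the small groups, the 2 spleens beside Met1 metastases had 168 and 149 RPKM of Isg20 and 88.5 and 75.0 RPKM of Rsad2, the highest group means of either gene. The single M6 and Met1 brain metastases had 2.18 RPKM and 0.548 RPKM of Isg15. The epithelial markers summed to 4.62 and 22.9 RPKM in them. The single Met1 tail vein lung metastasis had a 37-gene mean of 1.70, and these groups enter no test.

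Transcripts of the interferons themselves were near the limit of detection. Ifnb1 was at 0 in 117 of 281 profiles and reached 1 RPKM in 1, an E0771 tumour at 1.02 RPKM. Ifne, an epithelial type I interferon, also reached 1 RPKM in 1 profile, an MMTV-Myc tumour at 1.02 RPKM, and Ifnk was highest in a 4T1 tumour, at 0.432 RPKM. The 4 Ifna genes in the table (Ifna1, Ifna2, Ifna4, Ifna5) were at 0 in 243 to 273 profiles. The highest value among them was 0.546 RPKM, of Ifna4, in an E0771 tumour. At this depth such values rest on few reads, and these genes are close copies of each other. Ifng, the type II interferon, reached 1 RPKM in 22 profiles, with a highest value of 6.20 RPKM in an EMT6 tumour. Of 16 sensing genes tested in the lines, such as Tmem173 (STING) and Tlr3, 5 were higher in E0771 (background 23.9%). In E0771 2 of them were lower (share of all genes not given here). Of 14 tested further interferon-stimulated genes (Cxcl10, Ifi47, Ddx60 and others), 9 were higher in E0771 (23.9%), 11 in EMT6 (17.4%), and 11 were lower in HRM1 (16.7%).

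Outside the list, genes whose group means followed the mean of the 37 closely over 61 groups included Gbp3 (Pearson r = 0.88), Irgm1 (0.88), Tap1 (0.85), Nmi (0.85), Tapbp (0.84), Ddx60 (0.84), Oas1b (0.83), Gbp2 (0.83) and Parp10 (0.83). These are descriptions of likeness over groups of unequal size that share a pipeline, and no p-value is attached.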

How the data were processed

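Gene RPKM values were deposited as 1 table, made by the authors for mm9, and TopHat and DESeq2 are named in the submitters' processing notes. The extraction date, strand setting and library kit of each label series are not given in the sources used here. Each of the 61 groups was taken from the sample labels. For the fits, values were transformed as log2(RPKM + 1) and then averaged over the libraries of 1 animal and tissue. For the filter and the RPKM levels given, the same libraries were averaged on the RPKM scale. Genes were kept at 1 RPKM or more in as many profiles as the smaller group holds. Limma 3.58.1 (R 4.3.3) was fitted with a trend and robust variances, with Benjamini-Hochberg adjustment over all genes kept and a threshold of 0.05. A fold on this scale understates changes of low genes.

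Metastasis and tumour were paired by the animal named in the labels. Deviations of the samples of 1 animal correlated above 0.1 in 44 of 68 pairs. The test was tried on simulated data with known changes. In simulated 4T1 pairs it recovered 76 of 100 changes of 1 on the log2 scale and 99 of 100 changes of 2. It made 16 false calls there. In simulated MOLF and FVB PyMT tumours it recovered 94 and 100 of 100, with 5 false calls. Alternatives were a pseudocount of 0.1, no filter, rescaling to the median ratio, no pairing, each replicate left out, and subsets by library label. Settings without the PyMT FVB animal tagged MOLF, without the AS libraries, without single cultures, lines or tail vein animals, and with RNA labels only in the driver comparison were chosen after seeing the data. Counts under these alternatives are given without the share of all genes called. The genes and lists were chosen with earlier results of these data known. In each comparison the genes named with a difference are those called, at most 6 per direction in order of size and reaching 5 RPKM in the group with more, plus genes that go against the rest. Results that need a gene left out of the text are not reported here.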

Additional observations from a re-analysis of the deposited data

Results flagged for a closer look

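Among 39 groups of 4 to 10 animals, 1 held an animal far from the rest in the mean of log2(RPKM + 1) over the 37 genes. In lung beside PyMT FVB metastases, animal 2 of 5 reached 2.81, while the next was 2.62 and the lowest 2.57. Chance marks about 1 such group in 20. The difference between metastasis and tumour varied among the 10 models for Ifit3 (F-test in limma, adjusted p = 0.00895), Stat2 (adjusted p = 0.0416), Ddx58 (adjusted p = 0.0471) and Ifit2 (adjusted p = 0.0476).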

How the results depend on the processing

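Of 206 alternative counts of the main comparisons, 178 stayed within 1.5 times the reported count. The count of genes that differed among models (4) was 7 with a pseudocount of 0.1 and without the PyMT FVB animal tagged MOLF, and 1 with no filter, after rescaling and without the PyMT FVB animal whose tumour is replicate 6. Fewer genes were lower after tail vein injection with no filter (9 against 18), and 3 to 24 were when 1 line or 6DT1 animal was left out. In liver beside metastases the count (1) was 0 with no filter, 4 after rescaling and 0 to 0 with 1 healthy liver left out. In M6 liver metastases rescaling gave 20 higher and 3 lower, and turned the differences of Mx2 (-0.0101), Bst2 (-0.55), Trim25 (-0.83) and Xaf1 (-0.36). In the comparison of metastases with tumours over the models, a fit with no replicate block, that is without the pairing, called 0 higher and 0 lower. Leaving out 1 model gave 1 to 5 higher (5 without PyMT FVB) and 1 to 3 lower (3 without M6). The strains differed in 15 genes with KS labels only, against 32. Leaving out 1 animal gave 4 to 8 lower genes in adjacent lung, and 1 line 13 to 28 higher in tumours against cultured cells. Without the AS libraries the cultured 4T07 differences turned for Ifit1 (-0.11), Oas1g (-0.37) and Oasl1 (-0.35). The cause of these changes was not tested.

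Rescaling moved the median of all genes by over 0.1 in Myc (-0.17 to -0.01), Neu (-0.16 to -0.01) and C3Tag (0.19 to 0.02) against PyMT FVB and in D2A1 (-0.22 to -0.10). It also did so in M6 liver metastases (1.33 to -0.14) and in cultured M6 cells against the other lines (0.09 to -0.05). The same held for Met1 tumours against cultured Met1 cells (-0.07 to 0.04). Libraries of few reads limit genes near 0, such as the interferon ligands.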

Other observations

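Mx1 and Mx2, neighbours on the chromosome, were highest in different groups. Over the 61 group means Mx2 was highest in PyMT CAST tumours, at a mean of 25.4 RPKM, and Mx1 in E0771 tumours, at 8.04 RPKM. Isg20 was highest in spleen beside Met1 metastases, and its correlation with the mean of the other genes of the list over the groups was 0.50. These were chosen after their values were seen.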
